A study of Mus musculus with 6 samples.

Results

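Splicing factors and RNA helicases were followed in RAW 264.7 cells, a mouse macrophage line, through the probes whose single platform gene symbol begins with Srsf, Sf3, Hnrnp, Snrp, Prpf, Lsm, Rbm, Ddx or Dhx, with Ddx58 left out. That choice gave 102 of the table's 10698 named genes, on 111 of its 16281 probes, by their symbols and not by their values. Of these genes, 86 had a probe measured on all 6 arrays, and they were tested among 11231 features, of which 9472 were named genes. Exact zeros in the table were read as missing values.

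Total RNA of cells cultured for 2 h with lipopolysaccharide (LPS) at 100 ng/ml together with 100 pM of its binding protein (LBP) was set against RNA of cells cultured for 2 h with neither. Each of 6 arrays carried a treated and an untreated RNA: the treated RNA was labelled with Cy5 on 3 arrays and with Cy3 on the other 3, and the arrays of each kind are numbered as sets 1 to 3. LPS, of the outer membrane of Gram-negative bacteria, is sensed through TLR4, and LBP hands it to the receptor complex. All samples come from a single cell line, and nothing in the labels says that the sets were separate cultures, so the p-values measure only the spread between these sets, which may be technical. Neither agent was analysed here on its own. Throughout, a value is the log2 ratio of treated over untreated RNA of a gene, turned where the treated RNA was in Cy3; the deposited ratios were read as Cy5 over Cy3, the likely direction, which no source states. The 2 arrays of a set were averaged, so n = 3 sets, and SD is the spread between sets. Ratios compare a gene with itself, so no order of expression between genes can be read from them.

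The spliceosome removes introns from nascent transcripts. It is built from small nuclear ribonucleoproteins (snRNPs), each a small RNA held in a ring of Sm or Lsm proteins, and it is remodelled at almost every step by helicases of the DEAD-box (Ddx) and DEAH-box (Dhx) families. SR proteins (Srsf) mostly promote the use of nearby exons, heterogeneous nuclear ribonucleoproteins (Hnrnp) often oppose it, and Rbm is a loose naming group of proteins with RNA-binding motifs. Other helicases of the same families act in ribosome production, mRNA export, translation, mRNA decay and the sensing of viral RNA. In macrophages, regulated splicing and the decay of cytokine mRNAs are part of the response to LPS.

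The 250 bases before the annotated start of 4 genes past the threshold are shown from RefSeq (GRCm38.p6), each read 5′ to 3′ along the gene. Dhx40 (chr11:86807661-86807910, minus strand) and Ddx5 (chr11:106788908-106789157, minus strand, 1 of its 3 annotated starts) were higher in treated cells and are shown because each holds the letters CACGTG, an E-box, here in capitals. Hnrnpr (chr4:136310692-136310941, plus strand, 1 of 2 starts) is the member that was lower, and Rbm25 (chr12:83635460-83635709, plus strand), also higher, is shown for its different base composition. No letter is in capitals in Hnrnpr and Rbm25, because none of the motifs searched occurs there.
Dhx40: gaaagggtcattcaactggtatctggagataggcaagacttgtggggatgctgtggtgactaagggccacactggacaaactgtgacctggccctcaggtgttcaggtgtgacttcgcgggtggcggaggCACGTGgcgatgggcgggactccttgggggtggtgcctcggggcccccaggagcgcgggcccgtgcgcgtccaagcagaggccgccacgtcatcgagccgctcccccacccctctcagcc
Ddx5: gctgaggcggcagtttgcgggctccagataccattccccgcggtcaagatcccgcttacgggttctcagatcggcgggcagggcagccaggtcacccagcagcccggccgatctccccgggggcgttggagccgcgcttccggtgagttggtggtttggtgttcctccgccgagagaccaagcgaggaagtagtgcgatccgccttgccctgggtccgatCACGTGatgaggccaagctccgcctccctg
Hnrnpr: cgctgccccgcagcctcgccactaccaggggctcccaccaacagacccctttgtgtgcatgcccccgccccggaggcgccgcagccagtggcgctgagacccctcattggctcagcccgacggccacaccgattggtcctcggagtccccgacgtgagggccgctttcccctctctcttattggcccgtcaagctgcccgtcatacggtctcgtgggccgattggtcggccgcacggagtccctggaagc
Rbm25: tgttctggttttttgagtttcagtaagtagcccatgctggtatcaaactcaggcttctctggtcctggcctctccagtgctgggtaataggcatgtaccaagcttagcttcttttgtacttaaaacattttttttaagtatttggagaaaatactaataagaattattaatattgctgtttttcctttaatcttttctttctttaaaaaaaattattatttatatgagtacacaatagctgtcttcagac

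Across windows from 250 bases before to 50 after the start, 90 of the 102 genes, Dhx58 not among them, had 116 entries. They held a median of 24 CpG dinucleotides, against 17 in 9525 windows of 7529 named genes that were tested, members included, and 7 in all 32851 windows of the table. The window of Rbm25 held 0 CpG and 35% G and C, whereas the members' median was 60.0%. CACGTG was present in 10.3% of the members' windows and 9.03% of those of the tested genes. TGACGTCA, the full cyclic AMP response element, was present in 4.31% and 2.31%. The AP-1 letters TGANTCA were in 2.59% and 6.80%, the interferon response letters (GAAA, 2 of any base, GAAA) in 0.862% and 3.27%, and NF-kappaB letters (GGGA, any base, TTTCC) in 0.862% and 0.451%. Both strands were searched, none of these motifs contains another, and a match is a description of letters only. Members and tested genes share windows, so no test of these shares was made.

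The array medians as deposited lay between 0.00 and 0.02, and between 9.12% and 12.4% of the values of an array were zeros. Of 10 genes known to be induced by LPS, 8 were tested and all 8 were higher in treated cells on all 6 arrays, with a median log2 ratio of 3.17. Of 9 tested macrophage markers, 2 were higher (Adgre1 and Spi1) and 2 lower (Csf1r and Fcgr1). That is 22.2% each way, against 7.35% and 7.45% of all features. None of the 4 tested T cell, 2 B cell, 2 fibroblast and 2 epithelial markers passed the threshold. As the table holds ratios, neither the level of any marker nor its presence can be read from it.

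Most splicing factors and RNA helicases stayed close to a ratio of 1 after 2 h. Of the 86 tested members, 6 were higher in treated cells (6.98%), where 7.35% of all features were, and 1 was lower (1.16%), where 7.45% of all features were (limma, adjusted p under 0.05 over all features). The higher members were the DEAH-box helicases Dhx58, Dhx40 and Dhx34, the DEAD-box helicase Ddx5, and the RNA-binding proteins Rbm4 and Rbm25. The lower one was Hnrnpr. The share of members called higher was thus near the background. The 7.35% and 7.45% are also the background for the calls in single families and groups given below. With 5 to 18 tested genes in a family, few or no calls is near that background. Without set 1, 1 member was higher and 1 lower, where 5.09% of all features were higher and 4.31% lower. Without set 2 the counts were 5 and 2 (all features 7.60% and 7.40%), and without set 3 they were 1 and 0 (3.13% and 1.88%).

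**Figure D1:**
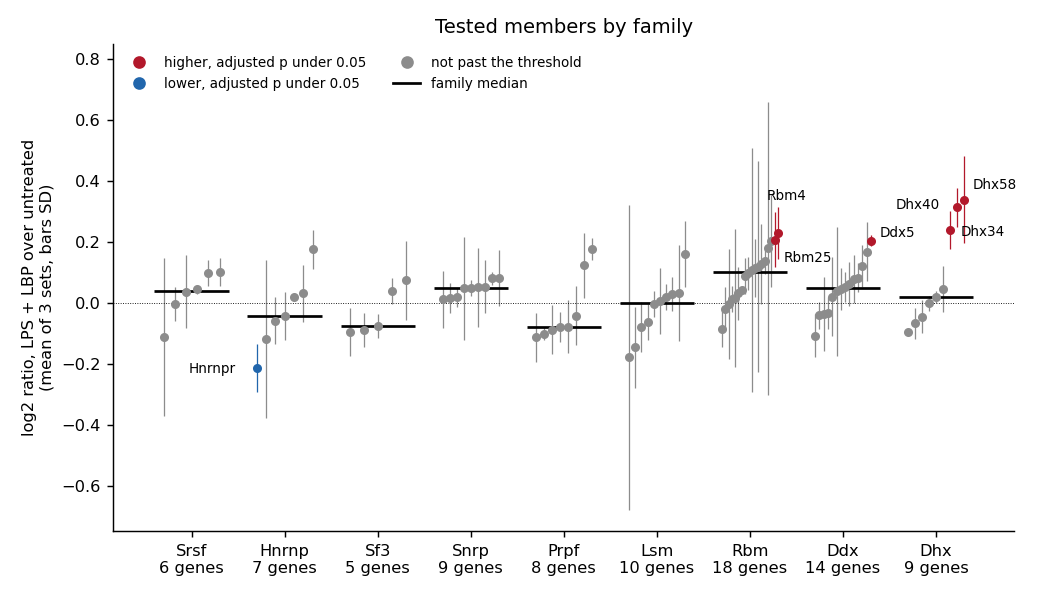
The mean log2 ratio of LPS + LBP over untreated (vertical axis) of each of the 86 tested members, grouped by family along the horizontal axis, with bars of 1 SD over 3 sets and black lines at the family medians. The 7 members past the threshold are coloured and named, and all members lie between -0.21 and 0.34.

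The sizes were small. The largest mean log2 ratio was 0.34 (1.26-fold) and the lowest was -0.21. Among members, Dhx58 and Dhx40 alone had mean ratios over 1.2-fold, which is 2.33% of the members, against 10.5% of all features. A mean ratio over 1.5-fold was reached by 0 members, against 2.97% of all features. For 85 of the 86 members (98.8%) the 95% confidence interval of the mean lay within 1.5-fold of no change on either side. Lsm5 was the exception, and the share among all features was 95.1%. The interval lay within 1.2-fold for 66 of the 86 members and for 7644 of the 11231 features. The median size of the log2 ratio, without its sign, was 0.0771 among members and 0.0737 among all features. The upper quartile of size was 0.114 among members and 0.148 among all features. Members and the whole table thus had near-equal medians of size, and the members lacked the large ratios; no test of this was made.

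**Figure D2:**
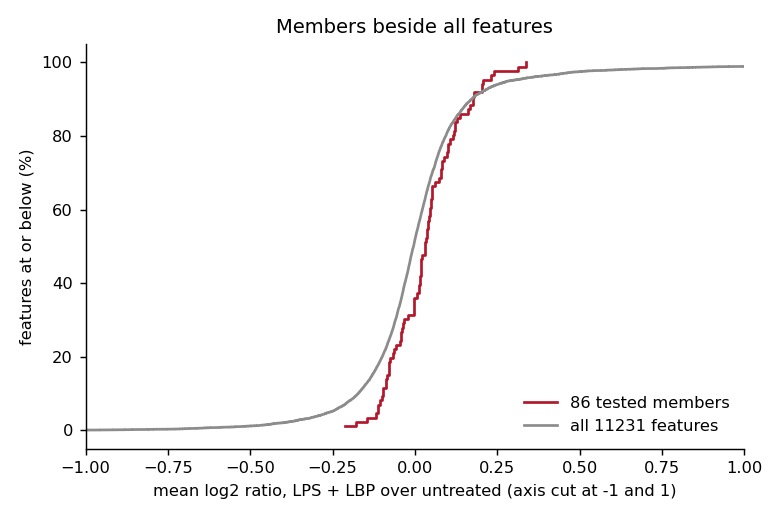
Percent of features (vertical axis) at or below each mean log2 ratio of LPS + LBP over untreated (horizontal axis, drawn from -1 to 1), for the 86 tested members and for all 11231 features. The members' curve ends between -0.21 and 0.34, and crosses 50% at 0.03, against -0.00 for all features.

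The sign of the ratios leaned to higher values in treated cells. Of the 86 members, 55 (64.0%) were above 0, against 48.2% of all features, and the medians were 0.03 and -0.00. At an unadjusted p under 0.05, 13 members were higher (15.1%, against 13.3% of all features) and 1 was lower (1.16%, against 14.8%). The median of the members was 0.02, 0.05 and 0.02 in sets 1, 2 and 3. On arrays with the treated RNA in Cy5 that median was -0.00. On arrays with the treated RNA in Cy3, turned, the median was 0.05, so it lay above 0 in that orientation only. The part of the dye in this difference was not tested.

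The DEAH-box family (9 of 9 genes tested) held the 3 highest of the members measured on all 6 arrays. Dhx58, known as LGP2, is a cytosolic relative of the viral RNA sensor RIG-I that tunes its signalling, and it is induced by interferon. Its log2 ratios were 0.40, 0.25 and 0.15 on the Cy5 arrays of sets 1 to 3 and 0.54, 0.47 and 0.22 on the Cy3 arrays. All 6 lay above 0, set 1 was the highest and set 3 the lowest in both orientations. The mean was 0.34 ± 0.14 (SD, n = 3), a 1.26-fold higher level in treated cells (limma, adjusted p = 0.0179). For comparison, 3 interferon-stimulated genes were chosen after their values were seen. Isg15 (2.64, 1.88 and 1.36 in sets 1 to 3) and Mx2 (2.43, 2.04 and 1.89) ran in the same order, whereas Ifit3 (2.24, 1.74 and 1.81) was lowest in set 2. Ifnb1 (4.19, 2.82 and 3.72) was lowest in set 2 as well, and Cxcl10 (3.74, 3.93 and 3.42) was highest there. Among the tested LPS-induced genes, Ccl2 alone (3.32, 2.94 and 2.70) had the order of Dhx58. Likeness in the order of 3 sets was not tested. Without set 1 Dhx58 had 0.27 and no longer passed (adjusted p = 0.0752).

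Dhx40, a DEAH-box protein, had 0.28, 0.22 and 0.37 on the Cy5 arrays and 0.20, 0.50 and 0.31 on the Cy3 arrays. It was above 0 on every array, with neither orientation set apart. The mean of 0.31 ± 0.06 (SD, n = 3), 1.24-fold, had the lowest adjusted p of any member (limma, 0.00827), and it was the only member past a threshold of 0.01. It kept its call in 12 of 16 alternatives, more than any other member, and lost it without set 3 (adjusted p = 0.111).

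Dhx34, which acts in nonsense-mediated mRNA decay, showed a different pattern. Its log2 ratios were 0.53, 0.35 and 0.49 on the Cy5 arrays but 0.01, -0.01 and 0.06 on the Cy3 arrays. The orientations did not overlap, and the part of the dye in this was not tested. The mean was 0.24 ± 0.06 (SD, n = 3; limma, adjusted p = 0.0220), with a small SD because each set averages a high and a low array. From the Cy3 arrays alone it was 0.02. A further Dhx34 probe, measured on 5 arrays and therefore left out of the mean, had 0.07, -0.42 and 0.28 on the Cy5 arrays and 0.67 and 0.19 on the Cy3 arrays of sets 2 and 3, and did not follow the first. The call was lost without set 1 (adjusted p = 0.0855), without set 3 (0.205) and with that probe let in (0.0693). It was kept in 8 of 16 alternatives. One of them was a dye term with the set as random block, added after seeing the data (limma, adjusted p = 0.00755).

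The other 6 Dhx genes did not pass. Dhx9, also called RNA helicase A, was the lowest at -0.10 ± 0.01 (limma, adjusted p = 0.222). The spliceosomal helicases Dhx15, which releases the spent intron lariat, and Dhx16, which acts before the branching reaction, had 0.05 and -0.07. Dhx30 of mitochondria had -0.00, Dhx33 of the nucleolus 0.02, and Dhx36, which unwinds G-quadruplexes, -0.04. The family median was 0.02, near that of all members, although its top 3 led the tested members. Dhx9 also binds viral nucleic acid, and its difference from Dhx58 was not tested.

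**Figure D3:**
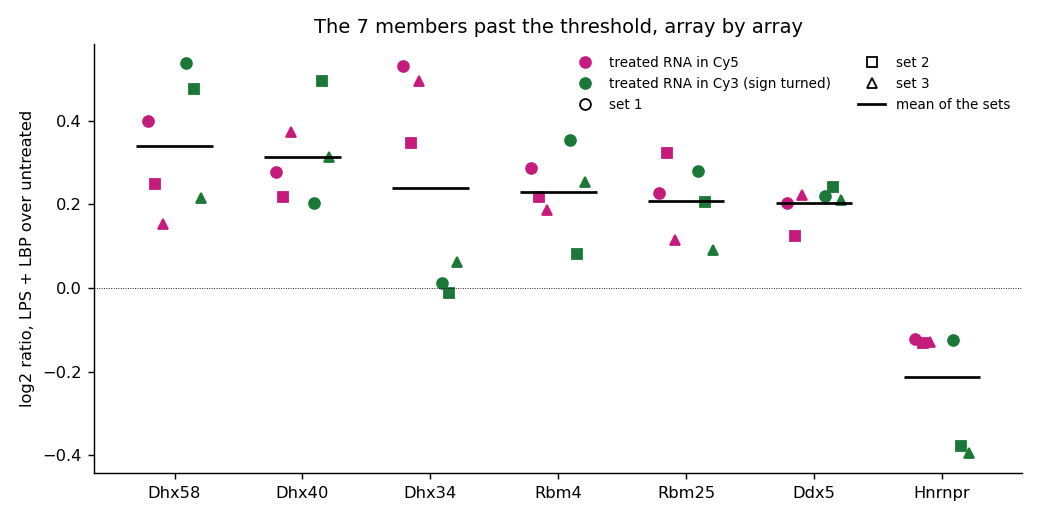
Log2 ratios of LPS + LBP over untreated (vertical axis) on each of the 6 arrays for the 7 members past the threshold (horizontal axis), coloured by the dye of the treated RNA, with marker shapes for the sets and a line at the mean of the sets. Dhx34 has values of 0.35 to 0.53 in Cy5 and -0.01 to 0.06 in Cy3, and the other 6 genes keep 1 sign on all arrays.

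Of the DEAD-box genes, 14 of 18 were tested and 1 passed, Ddx5. Ddx5 (p68) works in alternative splicing, microRNA processing and transcription. It had 0.20, 0.13 and 0.22 on the Cy5 arrays and 0.22, 0.24 and 0.21 on the Cy3 arrays. Apart from the Cy5 array of set 2, which was lower, the values were almost the same. The mean was 0.20 ± 0.02 (SD, n = 3), 1.15-fold (limma, adjusted p = 0.0287). It did not pass without set 1 (adjusted p = 0.0867) or without set 3 (0.226), with means of 0.20 in both.

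The 9 helicases of ribosome production and the nucleolus, Ddx10, Ddx18, Ddx21, Ddx24, Ddx47, Ddx51, Ddx54, Ddx56 and Dhx33, included no gene past the threshold. Their median was 0.02 and they ran from -0.11 for Ddx21 to 0.17 for Ddx24. Ddx21, a nucleolar helicase of rRNA transcription and processing, was below 0 on all 6 arrays (mean -0.11 ± 0.07; limma, adjusted p = 0.224). Ddx24 had 0.18, -0.01 and -0.06 in Cy5 and 0.38, 0.24 and 0.28 in Cy3, a mean of 0.17 ± 0.10 (adjusted p = 0.0963). Ddx50, the paralog that lies next to Ddx21 on chromosome 10, had 0.04 ± 0.21, with 0.28 in set 1, -0.05 in set 2 and -0.11 in set 3. Ddx39b (UAP56), which acts in spliceosome assembly and mRNA export, had 0.04, Ddx20, a partner of the SMN protein that loads Sm rings, 0.05, and the germline helicase Ddx4 0.12.

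Ddx6, an activator of decapping and mRNA storage, was missing on 1 array and so was not among the tested genes; it is named because of its value. It had 0.23 and 0.13 on the Cy5 arrays of sets 2 and 3 and 0.55, 0.54 and 0.47 on the Cy3 arrays. All 5 values were above 0, with the Cy3 values higher. When genes with values on at least 4 arrays were let in, its mean was 0.41 ± 0.12 over 3 sets, higher than any tested member (limma, adjusted p = 0.0120), with set 1 resting on the Cy3 array only. Rbm18, missing on 1 array too, had 0.29 and 0.21 in Cy5 and 0.26, 0.11 and 0.23 in Cy3, a mean of 0.22 ± 0.06 (adjusted p = 0.0399). Among the 97 members tested that way, 6 were higher and 0 lower, where 6.11% of all features were higher and 5.84% lower. Dhx34, with its further probe let in, then had 0.19, below Rbm4.

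Among the Rbm genes, 18 of 20 were tested and 2 were higher, where 7.35% of all features were. Of the tested genes 15 lay above 0 (83.3%, against 48.2% of all features). The family median, 0.10, was the highest of the 9, but without set 2 it was 0.02, below the medians of Ddx, Snrp and Srsf. Rbm4, which controls alternative splicing and, under stress, translation, had 0.29, 0.22 and 0.19 in Cy5 and 0.36, 0.08 and 0.25 in Cy3. Its mean was 0.23 ± 0.09 (SD, n = 3), 1.17-fold (limma, adjusted p = 0.0335), and both orientations gave 0.23. Without set 1 it did not pass (adjusted p = 0.109), nor without set 3 (0.213). Rbm14, a nuclear coactivator and the next gene on chromosome 19, had -0.09 ± 0.06 and was the lowest of the family.

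Rbm25, a splicing regulator associated with the U1 snRNP, had 0.23, 0.32 and 0.11 in Cy5 and 0.28, 0.21 and 0.09 in Cy3. Set 3 was the lowest in both orientations, and all 6 values were above 0. The mean of 0.21 ± 0.09 (SD, n = 3) lay just inside the threshold (limma, adjusted p = 0.0496). It did not pass without set 1 (adjusted p = 0.151), without set 2 (0.107) or without set 3 (0.130). Rbm22, which stabilises the active core of the spliceosome, was above 0 on all 6 arrays without passing, at 0.14 ± 0.04 (adjusted p = 0.109).

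Of the other Rbm genes, Rbm33 had 0.20 ± 0.15 (limma, adjusted p = 0.101). Its mean was 0.40 in Cy5 and 0.01 in Cy3, where the arrays were spread, at -0.31, 0.22 and 0.11 in sets 1 to 3. Rbm7, part of the complex that feeds nuclear RNA to the exosome, had 0.13 ± 0.13. Rbm5 and Rbm6, neighbours on chromosome 9 that regulate exon choice, had 0.03 and 0.09, and their relative Rbm10 had -0.02. Rbmx (hnRNP G) had 0.01.

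Some members of this group, picked out after their values were seen, spread widely between sets. Rbm8a, the Y14 subunit of the exon junction complex, had -0.24, 0.45 and 0.16 in sets 1 to 3. Rbmxl2, a testis relative of Rbmx, had -0.30, 0.50 and 0.13, and Rbm46os, the transcript opposite Rbm46, had -0.29, 0.67 and 0.16. In all 3 genes set 1 was below 0 and set 2 was the highest, and none passed the threshold. The arrays of a set could differ too: in set 1 Rbm46os had -0.75 in Cy5 and 0.17 in Cy3. A probe for a gene with close copies, such as Rbmx, Rbmxl1 and Rbmxl2, may bind transcripts of more than 1 of them.

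The Hnrnp family was the least completely measured: 7 of 12 genes were tested. Hnrnpr, an RNA-binding protein that in mouse neurons carries beta-actin mRNA to axons, had -0.12, -0.13 and -0.13 in Cy5 and -0.12, -0.38 and -0.40 in Cy3. All 6 values were below 0, and the Cy3 arrays of sets 2 and 3 were the lowest. The mean was -0.21 ± 0.08 (SD, n = 3), 1.16-fold lower in treated cells (limma, adjusted p = 0.0394). It kept its call in 6 of 16 alternatives and lost it without set 2 (adjusted p = 0.0774) and without set 3 (0.280).

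Hnrnpa0, which binds AU-rich elements of cytokine mRNAs, stood at the other end. It had 0.17, 0.25 and 0.33 in Cy5 and 0.10, 0.04 and 0.17 in Cy3, all above 0, with a mean of 0.18 ± 0.06 just outside the threshold (limma, adjusted p = 0.0627). Hnrnpa1, a repressor of splice sites, had 0.04 and 0.03 in sets 1 and 2 but -0.42 in set 3, where both arrays were low (-0.43 and -0.40). Hnrnpm, Hnrnpl, Hnrnph1 and Hnrnpdl ran from -0.06 to 0.03. The abundant Hnrnpc and Hnrnpk were measured on 1 array each, with 0.52 and 0.32 on the Cy5 array of set 1, and Hnrnpab on none, so no statement on their response can be made. In all, 16 members lacked a complete probe: 1 was on no array, 2 were on 1 array, 2 on 3 and the other 11 on 4 or 5.

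None of the 6 tested SR proteins passed. Srsf5 and Srsf6 had 0.10 each, Srsf2 and Srsf9 0.04, and Srsf3 -0.00. Srsf5 was above 0 on all 6 arrays (mean 0.10 ± 0.05; limma, adjusted p = 0.218). Srsf10, which turns into a splicing repressor when it loses its phosphates, had -0.11, 0.15 and -0.37 in sets 1 to 3, with the arrays of each set on the same side of 0. Its mean was -0.11 ± 0.26 (adjusted p = 0.524).

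The core snRNP proteins hardly moved. Of 12 Snrp genes 9 were tested. All 9 had means above 0 (against 48.2% of all features), but only by 0.01 to 0.08, and none passed. The Sm proteins Snrpe, Snrpf and Snrpg were not complete; where values on at least 4 arrays sufficed, Snrpe had -0.05 and Snrpg -0.02. The Sm ring proteins Snrpd1, Snrpd2 and Snrpd3 had 0.01, 0.08 and 0.02. Of the U1 and U2 proteins, Snrpa had 0.08, Snrpc 0.05, Snrpb2 0.05 and Snrpa1 0.02. The 95% confidence interval of each of the 9 lay within 1.2-fold of no change on either side, as did that of 7644 of the 11231 features. Snrpc and the entry Snrp1c-ps2, named as a pseudogene, leaned opposite ways with the dye: Snrpc had -0.17 in Cy5 and 0.27 in Cy3, Snrp1c-ps2 0.25 in Cy5 and -0.15 in Cy3.

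The 5 Sf3 genes on the table, all tested, encode some of the proteins that hold the U2 snRNP at the branch point. They ran from -0.10 to 0.07 with no call and a median of -0.08. Sf3b1, which clamps the branch-point helix, was below 0 on all 6 arrays at -0.08 ± 0.04 (limma, adjusted p = 0.346). Sf3a3 was the lowest at -0.10 ± 0.08 and Sf3b6, which lies against the branch-point adenosine, the highest at 0.07 ± 0.13. Both changed sign with the dye.

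In the Prpf family, 8 of 9 genes were tested and 6 lay below 0, with a median of -0.08. The share above 0 was 25%, against 48.2% of all features. Prpf3, a U4/U6 protein of the tri-snRNP, was the exception at the top: 0.15, 0.23 and 0.05 in Cy5, and 0.26, 0.15 and 0.22 in Cy3. All 6 values were above 0, and the mean of 0.18 ± 0.04 (SD, n = 3) lay just outside the threshold (limma, adjusted p = 0.05004). Its partners Prpf31 and Prpf4 had 0.12 and -0.08. Prpf8, the scaffold of the catalytic core, had -0.08, and Prpf18, which acts in exon ligation, -0.10 with all 6 arrays below 0. Prpf19, the ubiquitin ligase of the spliceosome, was the lowest at -0.11 ± 0.08 (adjusted p = 0.215). The kinase Prpf4b had a mean of -0.09 that joined -0.52 in Cy5 with 0.34 in Cy3.

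The Lsm family (10 of 10 genes tested) had a median of 0.00 and no call. The 6 tested proteins of the Lsm2 to Lsm8 ring, which binds the end of U6 RNA, had a median of 0.00. Lsm1, which replaces Lsm8 in the cytoplasmic ring that starts mRNA decapping, had -0.08, and Lsm11 of the U7 snRNP, which processes histone mRNAs, had -0.15 ± 0.13 (limma, adjusted p = 0.187). Lsm12 was the highest at 0.16 ± 0.11 (adjusted p = 0.120). Lsm5, of the U6 ring, was the lowest of the family and had the largest SD of all tested members: -0.08, 0.27 and -0.72 in sets 1 to 3, a mean of -0.18 ± 0.50 (adjusted p = 0.570). In set 3 both of its arrays were low (-0.81 and -0.63), and without set 2 it passed at -0.40 (adjusted p = 0.0203), whereas without set 3 it had 0.09 (adjusted p = 0.725).

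The families differed little from each other. Rbm had the highest median (0.10), followed by Ddx (0.05), Snrp (0.05), Srsf (0.04), Dhx (0.02), Lsm (0.00), Hnrnp (-0.04), Sf3 (-0.08) and Prpf (-0.08). In each of the 3 sets the medians of Rbm, Ddx, Snrp and Srsf were above 0 and those of Sf3 and Prpf below 0. Dhx, Lsm and Hnrnp changed sign between sets. The SD of a family's median between sets ran from 0.01 for Ddx and Sf3 to 0.05 for Lsm. Rbm lay above Ddx in each set, by a step larger than the SD of either, and each other step between neighbours in this order was smaller than the larger of their SDs. That order did not hold without set 2, where the medians were 0.02 for Rbm and 0.08 for Ddx. On the Cy5 arrays alone the medians of Dhx and Snrp turned to -0.01 each, and on the Cy3 arrays alone that of Sf3 turned to 0.05. No p-value was computed for a family.

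**Figure D4:**
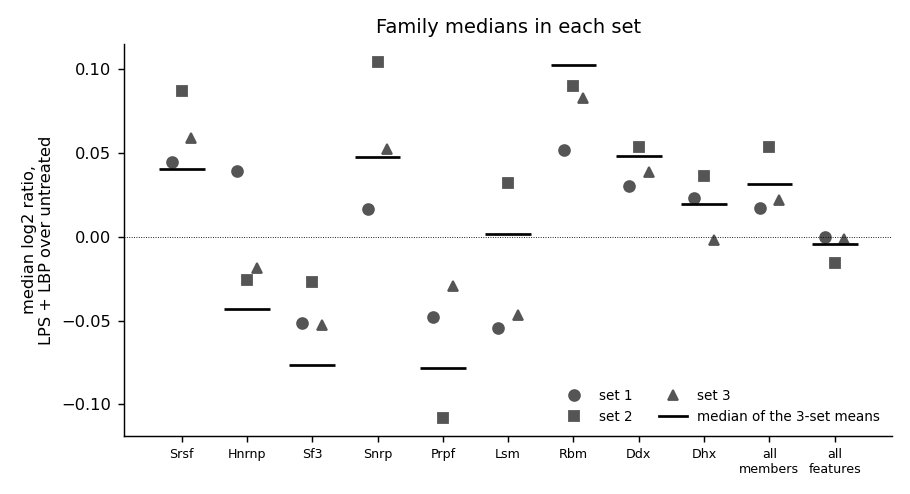
The median log2 ratio of LPS + LBP over untreated (vertical axis) of each family, of all members and of all features in sets 1, 2 and 3 (markers), with a line at the median of the genes' means over the sets, which can lie outside the set medians. The Rbm line is at 0.10, the Prpf and Sf3 lines are at -0.08, and all features are at -0.00.

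The dye orientations were then compared. Across the 86 members, the means of the Cy5 arrays and of the turned Cy3 arrays had r = -0.14, against 0.53 across all 11231 features. Between sets, r was 0.06 for sets 1 and 2, 0.34 for sets 1 and 3 and 0.37 for sets 2 and 3 across members, against 0.77, 0.85 and 0.84 across all features. These are correlations across genes, which are not independent replicates, and the labels do not say whether the arrays of a set share their RNA. Values kept 1 sign on all 6 arrays for 14 members (16.3%, against 19.1% of all features). As many, 14 (16.3%, against 13.1% of all features), had 1 sign on all Cy5 arrays and the other on all Cy3 arrays. Among members called at the threshold, 6 of 7 kept their sign on all arrays, the exception being Dhx34. The call rests on the same array values, so this count cannot be set beside the shares above.

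**Figure D5:**
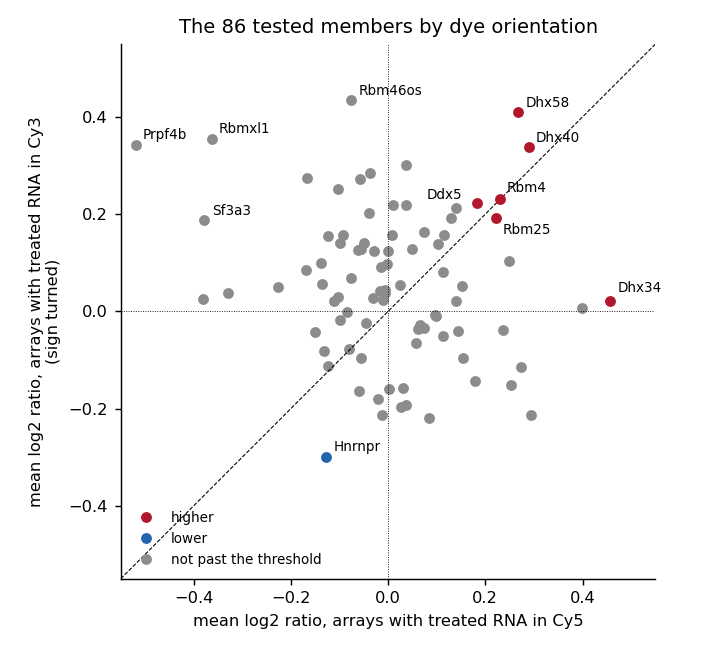
Mean log2 ratio of the 86 tested members on the Cy5 arrays (horizontal axis) and on the Cy3 arrays, sign turned (vertical axis), coloured by call. The dashed line marks equal values, the 7 called members and the 4 members farthest from that line are named, and the cloud as a whole does not follow it (r = -0.14).

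Genes of the same pathway with other names were compared through a list of 85 further splicing factors, of which 60 were on the array and 59 were tested. Of these, 5 were higher in treated cells (8.47%, against 7.35% of all features), 3 were lower (5.08%, against 7.45%) and 51 did not pass, with a median of 0.05. Srpk1 and Srpk2, kinases that phosphorylate SR proteins, changed in opposite directions. Srpk2 had -0.38, -0.34 and -0.39 in Cy5 and -0.17, -0.23 and -0.27 in Cy3, a mean of -0.30 ± 0.03 (limma, adjusted p = 0.00756). Srpk1 had 0.20, 0.26 and 0.27 in Cy5 and 0.05, 0.22 and 0.26 in Cy3, a mean of 0.21 ± 0.08 (adjusted p = 0.0399). Each kept its sign on all 6 arrays.

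Clk3, a nuclear kinase of SR proteins, was higher at 0.32 ± 0.08 (limma, adjusted p = 0.00959), but on 5 of 6 arrays, with -0.34 on the Cy5 array of set 2. Its relatives Clk1, Clk2 and Clk4 had -0.05, -0.03 and 0.17 without passing. Snrnp35 (0.29 ± 0.04) and Snrnp48 (0.22 ± 0.06), both proteins of the minor spliceosome, and Sf1 (0.24 ± 0.13), the branch-point binding protein, were higher. Snrnp25, a further protein of the minor spliceosome, had -0.03 and did not pass (limma, adjusted p = 0.680). Snrnp35 had at most 0.08 on the Cy5 arrays and at least 0.47 on the Cy3 arrays. Mbnl1, a regulator of alternative exons (-0.20 ± 0.03), and Xab2, a spliceosome subunit (-0.18 ± 0.03), were lower, each on all 6 arrays.

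A list of 21 symbols of RNA helicases outside the naming families had 8 on the array, all tested. Of these 8, 2 were higher (25%, against 7.35% of all features) and 0 lower (against 7.45%). Both were forms of eIF4A, the helicase that opens mRNA leaders for ribosome scanning. Eif4a1 had 0.31, 0.29 and 0.30 in Cy5 and 0.26, 0.25 and 0.24 in Cy3, so the values hardly differed between arrays, with a mean of 0.28 ± 0.01, 1.21-fold (limma, adjusted p = 0.00898). Eif4a2 had 0.18 ± 0.04 (adjusted p = 0.0478). Upf1 of nonsense-mediated decay had 0.01, and Mov10 0.13 without passing (adjusted p = 0.123).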

How the data were processed

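The table deposited by the authors holds a log2 ratio per probe and array for 6 two-channel arrays. The sources used here do not give the dye normalization, the background correction, the software or the direction of the ratio. It was taken as Cy5 over Cy3, since the LPS-induced genes checked were positive in Cy5 and negative in Cy3 before turning. Precision is limited by how many arrays there are, and signal over background is unknown without spot intensities.

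Zeros (10.8% of values) were set to missing, and 13224 probes complete on 6 arrays were kept. Probes were named from the platform annotation, and all 102 member genes matched RefSeq (GRCm38.p6) by gene ID. Complete probes of a gene were averaged; for the 5 members with several, their means differed by at most 0.096. Cy3 ratios were multiplied by -1 and the arrays of a set averaged, which cancels a dye effect only where it is of equal size on both arrays. The 3 set means of each feature entered limma 3.58.1 (R 4.3.3; lmFit and eBayes against 0, two-sided; prior degrees of freedom 4.16), with Benjamini-Hochberg adjustment over 11231 features and a threshold of 0.05. The fit was also run on simulated set means, which were drawn independently and held no dye effect. No conclusion is drawn from that run. "Higher", "lower", "rose", "fell" and "changed" refer to that threshold.

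To check the pairing, each array's deviation from its orientation mean was correlated, before turning, with that of the array of the same set: r was 0.40, 0.43 and 0.14 across features. Positive values before turning mean that the turned deviations of a set ran in opposite directions. The consensus correlation of the turned arrays of a set is another measure. It was -0.44 without a dye term, where differences between the orientations enter it, and -0.06 with a dye term. These values do not show that the arrays of a set share their RNA, and sets were formed by the labels' numbers alone.

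Genes were named in the text by a rule: members past the threshold (up to 12 each way), the highest and lowest of each family, members whose probes differed by over 0.5, and up to 5 rises and falls of the other pathway genes; the remaining names show how a family or role group is made up, or are said to be picked after their values were seen. The rule for the members reads symbols only, but it and the lists were chosen with earlier results of these data known. Alternatives covered array centring and scaling, zeros, missing values, probe averaging, dye orientation, the set block, leaving out sets, and thresholds.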

Additional observations from a re-analysis of the deposited data

Results flagged for a closer look

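Among 21 named members, the 6 array values of 2 had 1 array apart from the rest. Ddx5 was 0.13 on the Cy5 array of set 2, where the nearest other array had 0.20. Srsf5 was 0.26 on the same array, where the nearest other had 0.11. Chance alone flags about 1 in 20 groups of values in this way. A further 2 had opposite signs in the dye orientations on every array: Sf3a3 averaged -0.38 with the treated RNA in Cy5 and 0.19 with it in Cy3, and Sf3b6 averaged -0.10 in Cy5 and 0.25 in Cy3. The difference between orientations was not tested.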

How the results depend on the processing

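Against 6 members higher and 1 lower, no alternative turned the direction of a called member. Among named members that were not called, the Cy5 arrays alone turned Rbm14 to 0.0262, Sf3b6 to -0.103, Snrpd2 to -0.0400 and Snrpd1 to -0.0171, and the Cy3 arrays alone turned Lsm5 to 0.0254 and Sf3a3 to 0.187. With each set left out in turn, Lsm5 ran from -0.401 without set 2 to 0.0932 without set 3, Srsf10 from -0.242 without set 2 to 0.0181 without set 3, and Snrpd1 from -0.0407 without set 2 to 0.0474 without set 1. Of the other values of named members, 52 lost the call, 8 gained it and 267 kept their side. The set as a random replicate block, whose correlation was negative (-0.44), gave 10 higher (all features 9.70%), as did a dye term with that block, added after seeing the data (8.39%). Higher members numbered 3 with zeros kept as 0 (all features 3.72%), 1 from the Cy5 arrays (3.09%), 0 from the Cy3 arrays (3.63%), 1 at a threshold of 0.01 (4.23%) and 0 against a 1.2-fold change (2.35%). Lower members numbered 0 in those 5 settings (all features, in the same order, 3.55%, 2.60%, 2.20%, 3.21% and 1.16%). They also numbered 0 with arrays scaled (6.63%), with single arrays and no replicate block (6.11%), and with missing values allowed (5.84%). Leaving out a set gave 1 to 5 higher and 0 to 2 lower, with fewer sets and, over all features, 352 to 854 higher. Lsm5 and Srsf10 were the members lower without set 2.

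The Ddx median was 0.00385 in Cy5 and 0.0736 in Cy3, and 0.0511 to 0.0764 with a set left out. In Cy5 the median was -0.00572 for Dhx, -0.0845 for Hnrnp and -0.00562 for Snrp, and with zeros kept Hnrnp had 0.00954. Prpf had -0.0171 in Cy5 and -0.0370 in Cy3, Rbm 0.0554 and 0.157, and Sf3 -0.103 and 0.0535. With a set left out, Hnrnp had -0.0326 to 0.0163, Lsm -0.0515 to 0.0193, Rbm 0.0242 to 0.0996, Sf3 -0.0866 to -0.0505, and Srsf 0.0281 to 0.0661. The cause was not tested. The small number of arrays limits the precision, and signal over background was not used.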

Other observations

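The set-to-set spread of Lsm5, Hnrnpa1 and Rbm39 was looked at after their values were seen, with other splicing genes beside it. In set 3 these 3 members (3.49% of 86) lay more than 0.3 below both other sets, against 0.65% of all 11231 features. Set 3 was not alone in this: as many, Rbm8a, Rbmxl2 and Rbm46os, lay as far below in set 1 (3.49%, against 0.881% of all features), and Lsm5, Rbmxl2 and Rbm46os as far above in set 2 (3.49%, against 2.18%). Rbm39, a coactivator that also acts in splicing, had 0.16, 0.13 and -0.25 in sets 1 to 3. Of the 59 other splicing factors tested, 4 (6.78%) lay as far below in set 3 and 0 in sets 1 and 2. Wtap, a subunit of the mRNA methyltransferase complex, had 0.00, -0.04 and -1.51 in the 3 sets, and both arrays of set 3 were low (-1.31 and -1.71). Qk, a regulator of alternative splicing and mRNA stability, had 0.12, -0.01 and -0.75. Celf2 had 0.01, -0.04 and -0.53, and Ptbp2 had -0.07, -0.07 and -0.51, both regulators of exon choice. None of these 7 genes passed the threshold over the 3 sets. The cause was not tested.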
